A study of Tupaia belangeri chinensis with 36 samples.

Results

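LINC-REPS1-3 was the abundant one of 3 annotated features named after the REPS1 locus in the fetal cortex of the Chinese tree shrew, and its level, scaled to library size, differed 32.5-fold between the highest and the lowest library. At E28 it rose from the ventricular zone through the inner to the outer subventricular zone, where it reached 270 ± 5.55 CPM (the count scaled to the size of the library; SD, n = 2), 18.9 times its level in the ventricular zone. By E42 the outer subventricular zone held 15.0 ± 2.03 CPM (SD, n = 2), 18.0-fold less. The ventricular zone started low and showed no detectable change, at 14.3 ± 0.14 CPM (SD, n = 2) at E28 and 15.3 CPM (n = 1) at E42.

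The members are the features whose name is LINC-REPS1- followed by a number, which gave 3 of the 76871 features in the count tables, namely LINC-REPS1-1, LINC-REPS1-2 and LINC-REPS1-3. No feature was named REPS1-AS- followed by a number. The locus was chosen by the measured abundance of LINC-REPS1-3, that is by its mean level over the libraries, so its rank in abundance is given as a description with no test. The names begin with LINC, which is read here in its usual sense of a long intergenic noncoding RNA, and they carry the symbol of a nearby gene. The count tables hold neither coordinates nor sequences, and the position and distance of the 3 features relative to REPS1 were not analysed here.

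REPS1 itself encodes a protein with an EH domain that takes part in endocytosis and growth factor signalling. Long intergenic noncoding RNAs are transcribed from their own loci between protein-coding genes and carry no long reading frame. Many are found in only a few cell types, and some act on neighbouring genes while others act elsewhere or have no known role. The cortical wall in which they were measured is layered by function. Apical progenitors divide at the ventricle in the VZ, and basal progenitors divide in the inner and outer subventricular zones (ISVZ and OSVZ). New neurons cross the intermediate zone (IZ) to settle in the cortical plate (CP), and the marginal zone (MZ) with its Cajal-Retzius cells lies beneath the pial surface.

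The study asked how expression differs between these layers and how it changes over development in a species that has an OSVZ but a smooth cortex. RNA sequencing counts of 35 libraries, each from a layer of fetal cortex cut out of Nissl-stained sections by laser capture microdissection, were analysed at embryonic days 28, 37 and 42. All 6 layers were represented by 2 libraries at E28. At E37, the MZ and the inner and outer parts of the cortical plate (CPi and CPo) had 2 libraries, the IZ had 3 and the undivided plate had 1, and at E42 every layer had 2 with the plate again in its parts, except for the VZ with 1. The labels name no genotype, strain or treatment for any group. The second E42 VZ library was left out because its file is identical to that of E28 VZ replicate 2. Which label is right is not known. The file was kept as E28, and if it belongs to E42, the E28 VZ rests on 1 library. The VZ, ISVZ and OSVZ of E37 were not analysed here. The labels do not state which animal each library came from, so the p-values measure the spread between libraries, which may be partly technical.

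Libraries held 17932690 to 102042743 counts on features, with ranges of 20896997 to 40226474 at E28, 17932690 to 37278157 at E37 and 21545784 to 102042743 at E42. The layers could not be checked against marker genes, since protein-coding features carry identifiers that the files do not pair with symbols. Reads that did not map to a single place made up 15.4% of the lines in E28 ISVZ replicate 1 and at most 4.79% in any other library. LINC features together took a median of 0.860% of the counts on features at E28, 0.826% at E37 and 0.746% at E42.

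Of the reads counted on the members, 99.8% fell on LINC-REPS1-3. It had 66579 counts over the 35 libraries, from 263 in E42 MZ replicate 2 to 9657 in E28 OSVZ replicate 1, and it was counted in every library. LINC-REPS1-2 had 147 counts, with 0 to 25 in a library. LINC-REPS1-1 had 0 counts in all 35 libraries, which allows up to 3 counts in a group, or 0.0243 CPM of pooled raw counts in the deepest group and 0.0945 CPM in the shallowest. Feature lengths were not used, so these figures compare numbers of reads and not levels of transcript. Counting intervals and limits cover counting error only. LINC-REPS1-2 and LINC-REPS1-3 passed the filter on low counts and were among the 26858 features tested, and LINC-REPS1-1 did not pass.

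At E28, LINC-REPS1-3 stood at 14.2 and 14.4 CPM in the 2 VZ libraries, from 445 and 582 counts. In the ISVZ it was at 94.0 and 87.3 CPM, and in the OSVZ at 266 and 274 CPM, from 9657 and 9450 counts. The levels of the 3 germinal layers thus did not overlap, and they rose outward from the ventricle. Beyond the OSVZ they declined towards the pial surface, with 202 and 178 CPM in the IZ and 135 and 105 CPM in the CP. The 2 MZ libraries were at 56.7 and 91.7 CPM, further apart than those of any other E28 layer on the log2 scale, and overlapped those of the ISVZ.

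At E37 the 3 IZ libraries were at 53.4, 31.1 and 38.2 CPM, and the library of the whole CP was at 51.8 CPM. The CPi libraries were at 33.3 and 28.0 CPM, those of the CPo at 50.1 and 29.3 CPM, and those of the MZ at 29.2 and 20.8 CPM. All 10 libraries lay between 20.8 and 53.4 CPM, with a median of 32.2 CPM, and neighbouring layers overlapped. Each of them was below the lowest E28 library of the IZ, CP or MZ, which was at 56.7 CPM.

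At E42, LINC-REPS1-3 had 15.3 CPM in the VZ library, 25.2 and 26.4 CPM in the ISVZ, and 16.4 and 13.6 CPM in the OSVZ. In the neuron-rich layers the pairs of values were 17.9 and 12.9 CPM in the IZ, 13.9 and 11.3 CPM in the CPi, 17.8 and 19.1 CPM in the CPo, and 8.42 and 12.7 CPM in the MZ. Both ISVZ libraries were above every other E42 library. The 8 neuron-rich libraries of E42, from 8.42 to 19.1 CPM, all lay below the 10 of E37. The lowest value of the whole series came from the deepest library, E42 MZ replicate 1, and rested on 880 counts.

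**Figure D1:**
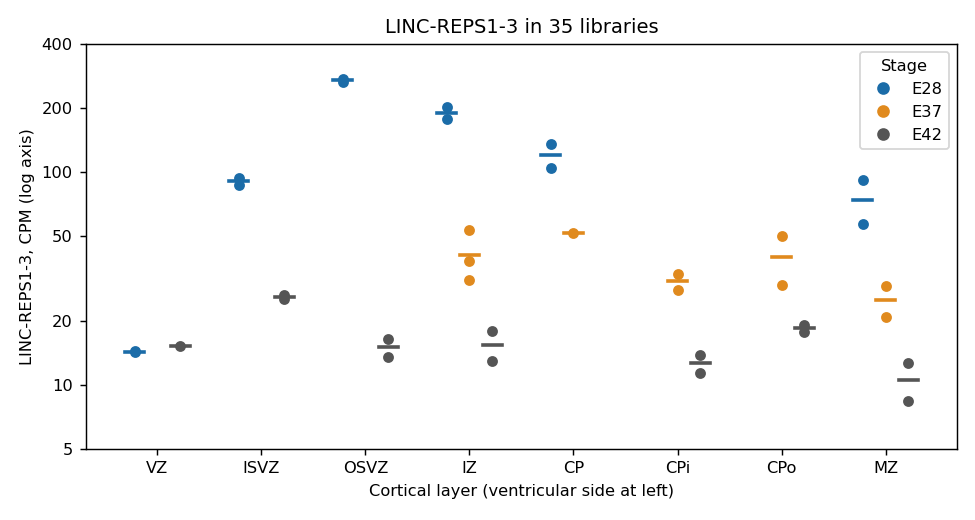
Level of LINC-REPS1-3 in each of 35 libraries, in CPM on a log axis, against cortical layer from the ventricular side (left) to the pial side (right); points are libraries coloured by stage and short bars are group means. The E28 points climb from 14.2 CPM in the VZ to 274 CPM in the OSVZ and decline outward, whereas the E42 points all lie between 8.42 and 26.4 CPM.

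Ordered by their means, the 18 groups ran from the E28 OSVZ through the E28 IZ (190 ± 17.1 CPM; SD, n = 2), CP (120 ± 21.1 CPM; SD, n = 2), ISVZ (90.6 ± 4.71 CPM; SD, n = 2) and MZ (74.2 ± 24.7 CPM; SD, n = 2) to the E37 layers. The 4 highest groups were each separated from the group below, except that the ISVZ overlapped the MZ. Below the E28 MZ came the E37 CP, IZ (40.9 ± 11.4 CPM; SD, n = 3), CPo (39.7 ± 14.7 CPM; SD, n = 2) and CPi (30.7 ± 3.72 CPM; SD, n = 2), in which each overlapped the next. The E42 ISVZ (25.8 ± 0.88 CPM; SD, n = 2) overlapped the E37 MZ (25.0 ± 5.93 CPM; SD, n = 2) below it. From the E42 CPo (18.5 ± 0.94 CPM; SD, n = 2) down to the E28 VZ, each group overlapped the next, so that the order of the E42 CPo, IZ, VZ and OSVZ and the E28 VZ was not resolved. The E42 CPi (12.6 ± 1.80 CPM; SD, n = 2) and MZ (10.6 ± 3.02 CPM; SD, n = 2) were lowest and overlapped each other.

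Layer steps were tested with edgeR's quasi-likelihood test in a single model of the 35 libraries, with Benjamini-Hochberg adjustment over the 26858 features, and are given as log2 differences ± SE of the fit. Of the 5 steps of E28, the first and the second passed the threshold of 0.05. LINC-REPS1-3 was higher in the ISVZ than in the VZ by 2.66 ± 0.28 (adjusted p = 1.12e-07, 4.44% of features called), a 6.34-fold ratio of means, and both ISVZ libraries were above both VZ libraries. The second step, from ISVZ to OSVZ, was 1.57 ± 0.27 (adjusted p = 0.000181, 8.94% called), a 2.97-fold ratio of means. The first of these steps placed it 212th and the second 341st by size among the features that rose, out of the 10017 with a mean of at least 5 CPM.

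The 3 outer steps of E28 did not pass. The difference of the IZ from the OSVZ was −0.50 ± 0.26 (adjusted p = 0.412, 3.46% called) and that of the CP from the IZ −0.67 ± 0.26 (adjusted p = 0.172, 5.45% called). The MZ differed from the CP by −0.69 ± 0.26 (adjusted p = 0.103, 9.22% called). All 3 differences were negative, and over longer distances the decline was past the threshold. The OSVZ exceeded the CP by 1.17 ± 0.27 (adjusted p = 0.00228, 12.7% called), and without E28 CP replicate 2 that difference was 1.00 with an adjusted p of 0.0608. It exceeded the MZ by 1.86 ± 0.27 (adjusted p = 8.04e-06, 18.1% called). These 2 comparisons were added after the levels had been seen.

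No step between neighbouring layers of E37 passed the threshold. The CPi differed from the IZ by −0.42 ± 0.24 (adjusted p = 0.702, 0.503% called), the CPo from the CPi by 0.37 ± 0.27 (adjusted p = 1, 0.0186% called) and the MZ from the CPo by −0.67 ± 0.27 (adjusted p = 0.108, 12% called). Few features at all were called between the IZ, CPi and CPo of that stage, so these comparisons do not show that the layers were alike.

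Among the 6 steps of E42, 1 passed, and only narrowly. LINC-REPS1-3 differed in the MZ from the CPo by −0.82 ± 0.27 (adjusted p = 0.0411, 13.2% called), and the adjusted p was 0.0536 with DESeq2's size factors and 0.0541 with the repeated VZ file kept. The ISVZ differed from the VZ by 0.76 ± 0.34 (adjusted p = 0.205, 8.49% called) and the OSVZ from the ISVZ by −0.79 ± 0.27 (adjusted p = 0.268, 0.774% called). The remaining steps were 0.04 ± 0.27 for the IZ against the OSVZ (adjusted p = 0.985, 9.24% called), −0.29 ± 0.27 for the CPi against the IZ (adjusted p = 0.646, 6.92% called) and 0.55 ± 0.27 for the CPo against the CPi (adjusted p = 0.754, 0.655% called). Set against the mean of all other E42 layers, a comparison added after the ISVZ had been seen to be highest, the ISVZ was higher by 0.87 ± 0.20 (adjusted p = 0.00278, 11.1% called). Without E42 ISVZ replicate 2, this difference was 0.83 with an adjusted p of 0.0755.

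**Figure D2:**
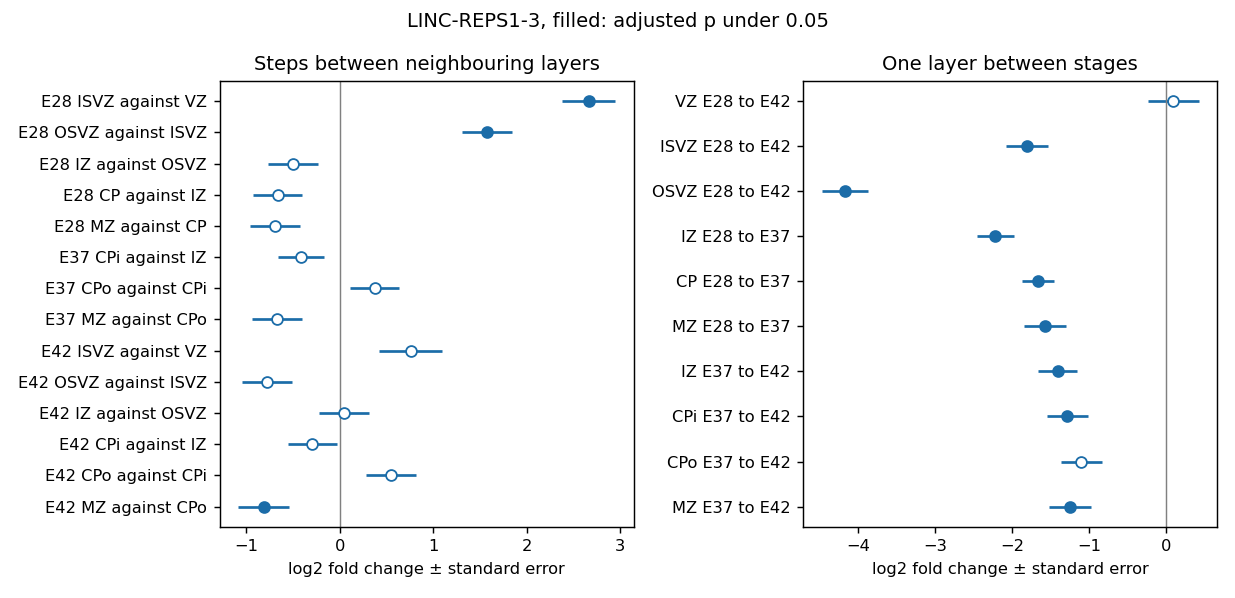
Differences of LINC-REPS1-3 between neighbouring layers of a stage (left panel) and between stages within a layer (right panel), as log2 fold changes with bars of ± 1 standard error from the edgeR fit; filled points have an adjusted p under 0.05. The filled steps on the left are the first and second of E28 and the last of E42, and on the right every difference is filled except those of the VZ and of the CPo.

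The difference of LINC-REPS1-3 between the mean of the progenitor-rich germinal layers (VZ, ISVZ and OSVZ) and that of the neuron-rich layers (IZ, CP and MZ) had opposite signs at E28 and at E42. At E28 the germinal layers differed from the neuron-rich layers by −0.76 ± 0.15 (adjusted p = 0.000174), in a comparison in which 35.7% of all features were called. The levels of both sets overlapped widely, with a median of 90.6 CPM (14.2 to 274) over 6 germinal libraries and 120 CPM (56.7 to 202) over 6 neuron-rich libraries. An exact two-sided permutation test over these 12 libraries gave a difference of −0.74 and p = 0.387. It moves libraries between layers, so its p includes the spread between layers, while the edgeR p takes only the spread within groups. The VZ was the only germinal layer below every neuron-rich layer. Mean log2 CPM at E28 was 3.84 in the VZ, 6.50 in the ISVZ and 8.07 in the OSVZ, beside 6.88 over the neuron-rich libraries. The OSVZ lay above that mean, so the negative sign at E28 does not describe every germinal layer.

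At E42 the mean of the germinal layers was higher by 0.42 ± 0.16 (adjusted p = 0.045, 30.1% called). Medians were 16.4 CPM (13.6 to 26.4) over 5 germinal libraries and 13.4 CPM (8.42 to 19.1) over 8 neuron-rich libraries. This call was not stable. The DESeq2 Wald test gave an adjusted p of 0.0662. The exact two-sided permutation test gave p = 0.0932, but it weighs libraries alike and includes the spread between layers. Leaving out any one of 8 of the 13 libraries also ended the call. The change of the germinal difference from E28 to E42 was 1.18 ± 0.22 (adjusted p = 0.000307, 15% called). That change passed the threshold under every alternative run for it, but exact permutation was not among them. The change averages unlike changes of the germinal layers, 0.09 in the VZ, −1.81 in the ISVZ and −4.17 in the OSVZ. The VZ part rests on a single E42 library, and no alternative left the VZ out at both stages. The result therefore cannot be read as a change shared by the germinal layers.

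Within the germinal zone, the change from E28 to E42 was not the same in the 3 layers. In the OSVZ, LINC-REPS1-3 differed at E42 from E28 by −4.17 ± 0.30 (adjusted p = 1.16e-10, 11.1% called), which placed it 15th by size among the falling features, of the 10017 with a mean of at least 5 CPM. In the ISVZ the difference was −1.81 ± 0.27 (adjusted p = 2.3e-05, 14.6% called), a 3.51-fold lower mean. In the VZ it was 0.09 ± 0.33 (adjusted p = 0.951, 12.4% called). The last rests on a single E42 library, and its sign turned under 2 of the alternatives.

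The differences between those changes were themselves tested, in comparisons added after the levels had been seen. From E28 to E42, the change of the OSVZ differed from that of the ISVZ by −2.36 ± 0.38 on the log2 scale (adjusted p = 0.00028, 3.97% called), and by −2.41 without E28 ISVZ replicate 1, the library with most reads of several mapping places. Against the VZ, the change of the OSVZ was −4.26 ± 0.42 (adjusted p = 1.48e-07, 2.73% called). Against the VZ, the change of the ISVZ was −1.90 ± 0.41 (adjusted p = 0.0236, 0.544% called). Both comparisons with the OSVZ also passed with any one of their libraries left out, apart from the lone E42 VZ library, which could not be. That of the ISVZ with the VZ missed the threshold whenever 1 of the 2 E28 ISVZ, 2 E28 VZ or 2 E42 ISVZ libraries was left out, with adjusted p-values of 0.0561 to 0.105. In E28 the OSVZ was 2.97 times the ISVZ, and in E42 the ISVZ was 1.72 times the OSVZ, although the latter step did not pass on its own.

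In the neuron-rich layers LINC-REPS1-3 declined at both intervals. Over the IZ, CP and MZ it fell by 1.82 ± 0.14 from E28 to E37 (adjusted p = 3.3e-10, 22.4% called), and over the IZ, CPi, CPo and MZ it fell by 1.26 ± 0.13 from E37 to E42 (adjusted p = 1.17e-07, 15.7% called). These 2 intervals share the E37 libraries. The values by library showed the same order, with 56.7 to 202 CPM at E28, 20.8 to 53.4 CPM at E37 and 8.42 to 19.1 CPM at E42 and no overlap between stages. Among the features with a mean of at least 5 CPM that fell, it was 28th by size in the first interval and 60th in the second.

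Taken layer by layer, the IZ changed by −2.22 ± 0.24 from E28 to E37 (adjusted p = 1.74e-06, 8.08% called) and by −1.41 ± 0.25 from E37 to E42 (adjusted p = 0.00148, 2.8% called). Its mean at E42 was 12.3-fold below that of E28. The CP changed by −1.67 ± 0.21 from E28 to E37 (adjusted p = 3.17e-06, 9.31% called). Thereafter the CPi changed by −1.28 ± 0.27 (adjusted p = 0.0145, 0.953% called) and the CPo by −1.10 ± 0.27 (adjusted p = 0.0502, 0.581% called), which was just outside the threshold. With the replicate number as a block across stages the change of the CPo was −1.28 with an adjusted p of 0.011. No label says that a replicate number marks the same unit at both stages, so that fit does not settle the call. The MZ changed by −1.57 ± 0.27 (adjusted p = 0.000967, 3.88% called) and then by −1.25 ± 0.27 (adjusted p = 0.00969, 1.84% called), and its mean at E42 was 7.03-fold below that of E28.

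Averaged over all 6 layers, LINC-REPS1-3 fell by 2.55 ± 0.12 on the log2 scale from E28 to E42 (adjusted p = 1.33e-15, 35.6% called). That mean joins unlike layers, since the OSVZ changed by −4.17 and the VZ, with a single E42 library, by 0.09. The median of all features tested was 0.20 in that comparison, so that LINC-REPS1-3 moved against a small upward shift of the rest. It was 22nd by size among the falling features with a mean of at least 5 CPM. The share of counts on all LINC features was also lower at E42, with a median of 0.746% against 0.860% at E28, and its part in the result was not tested. In tissue cut from a layer, fewer cells that hold a transcript and less of it per cell cannot be told apart. A difference in preparation that followed the stage could not be told apart from the stage either.

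LINC-REPS1-3 took a changing share of all LINC counts. In the E28 OSVZ it held 3.00% of them and ranked 6th among the 31776 LINC features by CPM, and in the E28 IZ it held 2.36% and ranked 7th. In the E28 VZ it held 0.172% and ranked 61st, and by the E42 MZ it held 0.119%. Over all libraries its mean of 59.8 CPM ranked 18th among LINC features. These ranks compare counts that were not corrected for feature length.

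Its spread over the libraries was wide for a LINC feature so often counted. The SD of its log2 CPM over the 35 libraries was 1.40, the 6th highest of the 50 LINC features with the highest mean, for which the median was 0.64. Among the 143 LINC features with a mean of at least 5 CPM this SD ranked 26th. Among all 10017 features with such a mean it ranked 1166th. Of the 5 LINC features nearest to it in mean CPM, LINC-HNRNPR-1 had an SD of 0.70, LINC-KIF5C-1 of 0.71, LINC-GLUL-1 of 0.93 and LINC-CRYBA4-2 of 0.93. The fifth, named after the ribosomal protein gene RPL6, had an SD of 5.29, with libraries from 0 to 259 CPM.

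LINC-REPS1-2, the other member with reads, was too sparse for levels by library. Its 147 counts came from 25 of 35 libraries, with 25 and 12 in the 2 OSVZ libraries and 9 and 22 in the 2 IZ libraries of E28. Over the pooled raw counts of a group it stood at 0.504 CPM in the E28 OSVZ (exact 95% interval 0.355 to 0.695), 0.534 CPM in the E28 IZ (0.363 to 0.758) and 0.0279 CPM in the E28 VZ (0.00337 to 0.101). The OSVZ and IZ intervals thus lay above that of the VZ, with 37 and 31 counts against 2.

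Among all 36 comparisons, LINC-REPS1-2 passed the threshold in 1, the change from E28 to E42 over all layers. There it fell by 2.37 ± 0.86 on the log2 scale (edgeR adjusted p = 0.0307, 35.6% called). LINC-REPS1-2 passed the filter on low counts through libraries of E28 and E37 and none of E42, and its call was not rerun under the alternatives. At E28 the 12 libraries held 101 of its counts, at E37 the 10 held 28, and at E42 the 13 held 18. In E42, 8 of the 18 counts came from the deepest MZ library and 4 from E42 OSVZ replicate 1.

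Of the reads on LINC-REPS1-2 and LINC-REPS1-3, 0.220% (exact 95% interval 0.186 to 0.259) were on LINC-REPS1-2. That share was 0.209% (0.170 to 0.254) at E28, 0.307% (0.204 to 0.444) at E37 and 0.193% (0.114 to 0.304) at E42, and these intervals overlapped. In the OSVZ of E28 it was 0.193% (0.136 to 0.266), in the IZ 0.270% (0.184 to 0.383) and in the MZ 0.0253% (0.000641 to 0.141), from 1 read. The log2 CPM of the 2 features over the 35 libraries had a Pearson correlation of 0.69, a description over points that share stage, layer and depth.

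**Figure D3:**
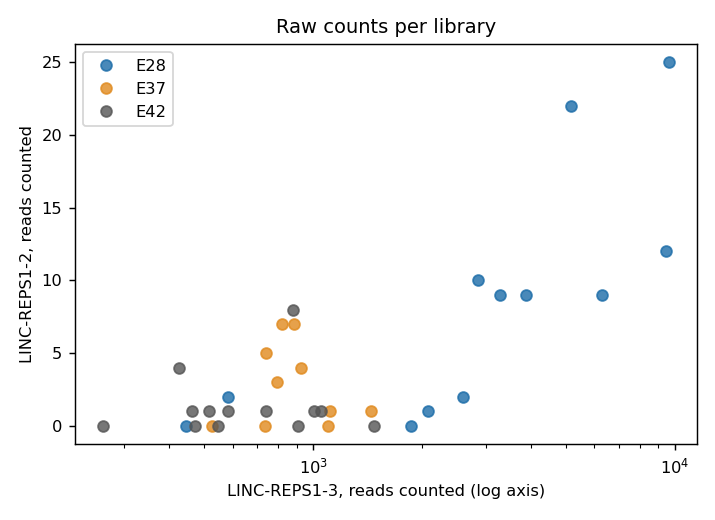
Reads counted on LINC-REPS1-2 against reads counted on LINC-REPS1-3 (log axis), with each point a library coloured by stage. The libraries with 9 or more reads on LINC-REPS1-2 are all of E28, and those with most reads on LINC-REPS1-3, 9657 and 9450, are the E28 OSVZ libraries.

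The other noncoding features of the region were read from a list named after the 8 genes around REPS1: HEBP2, NHSL1, CCDC28A, ECT2L, ABRACL, HECA, TXLNB and CITED2. The list held 35 LINC or AS (antisense) features named after 6 of the 8 genes. Of these, 5 passed the filter on low counts and 0 had a mean of at least 1 CPM, so that no other LINC or AS feature of the list was counted at a level near that of LINC-REPS1-3. In RefSeq's assembly TupChi_1.0 the same 8 genes flank REPS1, with 4 on either side, and CITED2, a transcriptional coregulator, is the outermost on its side.

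Among the 5 that passed, the change from E28 to E42 over all layers was called in 2, 1 higher and 1 lower, beside 35.6% of all features. The median log2 difference of the 5 was 1.17, against 0.20 for all features tested. It was the value of a feature that was not called, and a feature ranked above it had a standard error of 8793. The median therefore does not describe the list. The counts are few in both called features, which were named after their values had been seen. Each passed the filter on low counts only where it was high. For LINC-HECA-1 that was in neuron-rich libraries of E37 and E42, and for LINC-TXLNB-6 in libraries of E28. The direction of their calls was thus partly fixed by the filter. LINC-HECA-1 rose by 3.89 ± 0.70 (edgeR adjusted p = 6.84e-05), from 0 to 0.193 CPM over the E28 libraries to 0 to 1.17 CPM over those of E42. LINC-TXLNB-6 changed by −5.04 ± 1.24 (edgeR adjusted p = 0.00225). It was counted at up to 0.387 CPM at E28 and at 0 in every E42 library, which makes its fitted change depend on the prior count. In the 2 comparisons of germinal against neuron-rich layers, 1 of the 5 was called at each stage, beside 35.7% of all features at E28 and 30.1% at E42. It was LINC-HECA-1 both times, lower in the germinal layers.

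Similar profiles were sought among all features by the Pearson correlation of log2 CPM with LINC-REPS1-3 over the 35 libraries. Among 10016 tested features with a mean of at least 5 CPM, 22 had a correlation above 0.8. The 2 highest, TSDBGID.24645 (r = 0.92, Spearman's rho = 0.90) and TSDBGID.18647 (r = 0.90, rho = 0.91), carry identifiers for which the files give no gene name. TSDBGID.24645 had a mean of 411 CPM in the E28 OSVZ, 105 CPM in the E28 VZ and 84.1 CPM in the E42 OSVZ. It shared with LINC-REPS1-3 the peak in the E28 OSVZ and, among E42 layers, the highest mean in the ISVZ, at 162 CPM, over a narrower range of levels. These correlations describe libraries that share stage, layer and depth.

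Among the 1287 LINC and AS features with a mean of at least 1 CPM, none had a correlation above 0.8. The 5 highest were DOK6-AS-2 (r = 0.78, rho = 0.76), LINC-DRAXIN-1 (r = 0.78, rho = 0.79), HDAC2-AS-3 (r = 0.76, rho = 0.77), ZNF638-AS-1 (r = 0.75, rho = 0.71) and LINC-NEUROD2-1 (r = 0.72, rho = 0.73). By Spearman's rho, 4 of these 5 remained among the 5 highest. Their namesakes include DRAXIN, a secreted axon guidance protein, NEUROD2, a transcription factor of cortical neurons, and HDAC2, a histone deacetylase. Whether reads were counted by strand is not given in the sources used here, so the reads of an AS feature and of its namesake cannot be told apart.

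The profiles differed in where each feature peaked. HDAC2-AS-3 and ZNF638-AS-1 had their highest E28 mean in the OSVZ, at 9.00 and 4.51 CPM, as LINC-REPS1-3 did. In both, the E42 ISVZ was also the highest E42 layer, at 5.86 and 3.22 CPM. DOK6-AS-2 and LINC-NEUROD2-1 were highest in the E28 IZ, at 3.34 and 6.28 CPM, and LINC-DRAXIN-1 in the E28 CP, at 7.61 CPM. LINC-DRAXIN-1 was at 0 in all 13 libraries of E42 and also in the 4 replicate 3 libraries of E37, beside 2.43 to 5.11 CPM in the other E37 libraries, so that its zeros followed the replicate number within E37 as well as the stage. LINC-REPS1-3 was counted in each of these libraries. At E37 its replicate 3 was below replicate 2 in the CPi (28.0 against 33.3 CPM), CPo (29.3 against 50.1) and MZ (20.8 against 29.2). In the E37 IZ it was above, at 38.2 against 31.1 CPM.

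**Figure D4:**
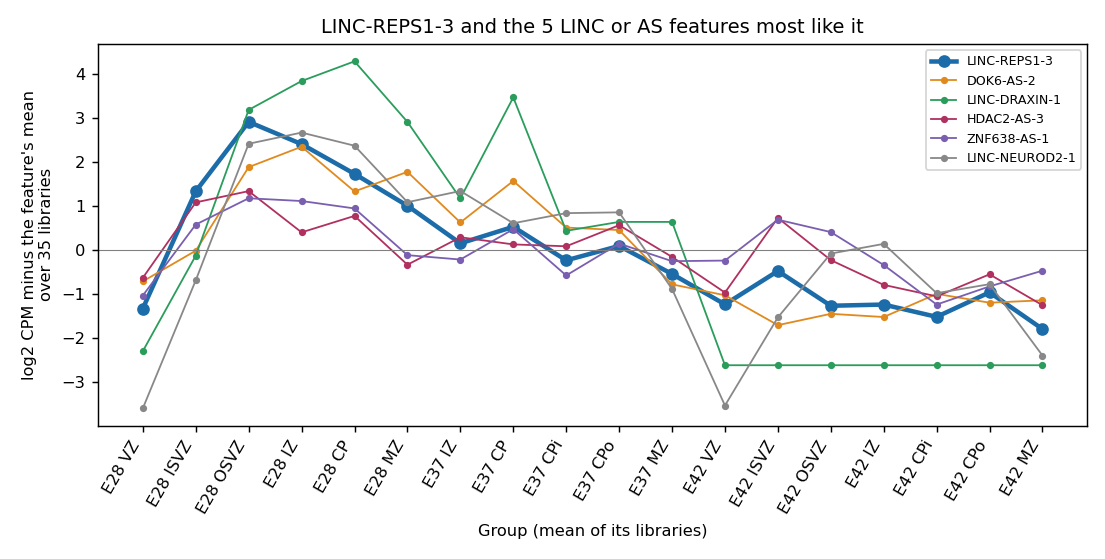
Mean log2 CPM of each group, minus the mean of the same feature over the 35 libraries, for LINC-REPS1-3 (thick line) and the 5 LINC or AS features with the highest correlation to it; groups are ordered by stage and then from the ventricular to the pial side. Among the E28 layers each line is lowest in the VZ, and the lines differ in the E28 layer that is highest and in the later stages.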

How the data were processed

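The authors trimmed adapters, aligned reads of poly(A)-selected RNA to the genome of this species (TS_3.0 annotation), and counted them with HTSeq-count; the submitters' processing notes also name HISAT2 and SAMtools. The deposited values are integer counts per feature, not normalized. The 5 counter lines for unassigned reads were kept out of library sizes. Reads that map to several places, and PCR duplicates, cannot be resolved from these counts.

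In R 4.3.3, 35 libraries were fitted with edgeR 4.0.16 (filterByExpr with a minimum count of 10, TMM, robust quasi-likelihood test, a mean for each of 18 groups, 17 residual degrees of freedom, common biological coefficient of variation 0.378). P-values were adjusted by the Benjamini-Hochberg method over 26858 features within each of 36 comparisons, with a threshold of 0.05. CPM used TMM-scaled library sizes, and log2 CPM a prior count of 2. The model was tested on simulated data. The CP of E37 weighted its 5 libraries alike, and that of E42 was the mean of CPi and CPo. The study used DESeq2, which is an alternative here (version 1.42.0).

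The members and lists were chosen with earlier results of these data known. Named features were the members, LINC and AS features named after 8 genes next to REPS1 in the human genome (by name where the mean reached 1 CPM), the 5 most correlated features of each of 2 sets, and the 5 LINC features nearest in mean CPM. Unnamed protein-coding identifiers were limited to 2. None of the 76871 identifiers was found among RefSeq symbols, so no marker list was used. The comparisons of the OSVZ and ISVZ with VZ changes, of the E28 OSVZ with the CP and MZ, of the OSVZ with the ISVZ over time, and of the E42 ISVZ were added after the values were seen.

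Replicate numbers are shared by groups. Deviations of same-numbered libraries from their group means correlated by more than 0.1 for all 15 layer pairs of E28 (0.167 to 0.265) and all 6 of E37 (0.129 to 0.272). For E42 this held in 10 of 15 (−0.117 to 0.232). The numbers were taken to pair libraries within E28 and within E37 on these correlations, as no label says what they mark. Alternatives were no filter, the DESeq2 Wald test, its size factors, library sizes without LINC-REPS1-3 or without the 20 most abundant features, only the stages compared, the CP parts as 1 group, a replicate block, the repeated file kept, exact permutation, and single libraries left out with the dispersion trend of the full model.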

Additional observations from a re-analysis of the deposited data

Results flagged for a closer look

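The interaction tests singled out 4 results in which the difference between layers of LINC-REPS1-3 was not the same at E28 and at E42. The change of the germinal against neuron-rich difference was 1.18 on the log2 scale. That of the OSVZ against the ISVZ was −2.36, that of the OSVZ against the VZ −4.26 and that of the ISVZ against the VZ −1.90. The comparisons with the VZ rest on a single E42 VZ library, which also enters the E42 germinal mean. The last 3 were added after the levels had been seen. In the 5 E37 libraries of the CP, CPi and CPo, Dixon's ratio was 0.0718 against a critical value of 0.71. These belong to separate groups of the model, none of which held 4 or more libraries. Their 2 highest values, 50.1 and 51.8 CPM, lay close together, which keeps this ratio for a single outlier small. It therefore cannot show whether a library was outlying.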

How the results depend on the processing

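Exact permutation was run only for the germinal differences of E28 and of E42. Of the 6 comparisons over sets of layers, 4 kept their direction and their side of the threshold under every alternative run for them. These were the change of the germinal difference (1.05 to 1.28), E28 to E42 (−3.10 to −2.49), E28 to E37 (−1.91 to −1.66) and E37 to E42 (−1.44 to −1.15). Leaving out the lone E42 VZ library took the VZ from the E42 germinal mean but not from that of E28. The change of 1.23 in that setting thus compares unlike sets of layers and cannot show whether the result holds without the VZ. For E28 to E42 the same removal took the VZ out at both stages, which gave the −3.10. The changes of the OSVZ against the ISVZ and against the VZ and the E28 difference of OSVZ and MZ also passed throughout. The E28 germinal difference passed except in the exact permutation test (−0.74), whose p includes the spread between layers. The E42 germinal difference did so with the 20 most abundant features left out of library size (0.31), with the CP parts as 1 group (0.41), the DESeq2 Wald test (0.40), DESeq2 size factors (0.40), exact permutation (0.43) and only the stage compared (0.32), and lay between 0.33 and 0.52 without single libraries. The libraries whose removal ended that call were replicate 2 of the E42 CPi and IZ, both of the CPo and of the ISVZ, and replicate 1 of the MZ and OSVZ. The change of the ISVZ against the VZ did not pass with the CP parts as 1 group (−1.90, adjusted p = 0.0573) and lay between −1.96 and −1.85 without single libraries. Without single libraries, the E28 difference of OSVZ and CP lay between 1.00 and 1.36, and that of the E42 ISVZ against the other layers between 0.81 and 0.93. Among single steps and layers, the E42 difference of MZ and CPo lost its call with DESeq2 size factors (−0.79) and with the repeated VZ file kept (−0.82), and the VZ change from E28 to E42 turned to −0.0016 with the 20 most abundant features left out of library size and to −0.053 with only the stages compared. The CPo change from E37 to E42 passed with the DESeq2 Wald test (−1.11), with no filter (−1.08) and with a replicate block across stages (−1.28). The cause was not tested in any of these.

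With the replicate block within a stage, the germinal difference was −0.76 at E28 and 0.41 at E42, and with the block across stages the change between them was 1.17. Apart from the CPo, the block changed no call. Depth limits LINC-REPS1-2, with 0 to 25 counts in a library, and with 1 library the E42 VZ is assumed to vary like the other groups.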
